A study of Mus musculus with 6 samples.

Results

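Cholesterol is made in the liver from acetyl-CoA, and the 31 genes described here carry out or control its synthesis, uptake and efflux. They were taken by gene symbol from a list grouped by role: 20 enzymes of synthesis, 4 genes of the SREBP2 switch, 3 genes of uptake and of sterol transport within the cell, and 4 efflux transporters. Of the 31 genes, 30 were matched to the count tables, and all 30 passed the filter on low counts, among 37991 genes in the tables and 17558 tested. Hmgcs1, an early enzyme of the pathway, was not analysed here.

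The data were RNA-seq counts per gene from 6 mouse libraries in 3 groups of 2. Tumours were primary tumours of TgAlbCreKap1lox mice, in which a Cre recombinase driven by the albumin promoter deletes Kap1 in hepatocytes, while other liver cells keep the gene. KAP1-deleted livers were liver tissue of TgAlbCreKap1lox mice, and control livers came from mice with the TgAlbCre transgene alone, so Cre was present in every group. All mice received HFD (a high-fat diet) for 27 weeks and were killed at 35 weeks of age. By the mouse code in the sample names, 1 mouse gave replicate 1 and another gave replicate 2 of both the tumours and the KAP1-deleted livers, and the control replicates came from 2 further mice. Each tumour therefore has the liver of its own mouse beside it, and the group comparisons share libraries with one another.

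Gene counts per library ranged from 39723997 to 62178752. Trim28, the gene of the corepressor KAP1, had 5.22 and 4.59 CPM in tumours, 5.06 and 6.02 CPM in KAP1-deleted livers, against 32.5 and 35.9 CPM in control livers, where CPM is the count scaled to library size with TMM factors, and replicate 1 is given before replicate 2 here and throughout. A list of 8 hepatocyte markers, Alb among them, summed to 50261 and 66433 CPM in tumours, 101517 and 107009 CPM in KAP1-deleted livers, against 104635 and 110109 CPM in control livers. In tumours 3 of these 8 markers fell relative to KAP1-deleted liver, with 4 of 9 Kupffer cell and macrophage markers, 1 of 7 endothelial and 1 of 8 stellate cell markers, against 6.64% of all genes. The Kupffer cell list summed to 284 and 400 CPM in tumours, 632 and 646 CPM in KAP1-deleted livers, against 610 and 576.8 CPM in control livers. The 6 cholangiocyte markers summed to 3.05 and 22.0 CPM in tumours, 27.9 and 34.5 CPM in KAP1-deleted livers, against 15.5 and 31.8 CPM in control livers, and the 7 lymphocyte markers to 32.5 and 66.7 CPM in tumours, 30.5 and 39.3 CPM in KAP1-deleted livers, against 37.3 and 29.3 CPM in control livers. The endothelial list summed to 200.4 and 184 CPM in tumours, 291 and 293 CPM in KAP1-deleted livers, against 266 and 282 CPM in control livers, and the stellate cell list to 167 and 226 CPM in tumours, 236 and 307 CPM in KAP1-deleted livers, against 252 and 286 CPM in control livers. Of all these markers Cftr, of cholangiocytes, was alone at 0 counts in a library, tumour replicate 1. Reads not assigned to a gene made up 36.7% and 33.1% of the total in tumours, 24.8% and 20.9% in KAP1-deleted livers, against 27.6% and 20.9% in control livers. They include ambiguous reads, and replicate 1 was above replicate 2 in each group. The TMM scaling factor was 1.31 and 1.22 in tumours, 0.864 and 0.879 in KAP1-deleted livers, against 0.872 and 0.948 in control livers. The part of this cell makeup, of the unassigned reads and of the scaling factors in the results below was not tested. In bulk tissue fewer cells of a type and less RNA per cell cannot be told apart.

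The pathway runs from acetyl-CoA over mevalonate to the isoprenoid farnesyl diphosphate, from there to squalene and lanosterol, and then by demethylation, reduction and isomerisation to cholesterol. Its enzymes are switched on together by the transcription factor SREBP2 (Srebf2), which the escort protein SCAP carries from the endoplasmic reticulum to the Golgi when sterols are low, and which the INSIG proteins hold back when sterols are high. Excess sterol acts through the LXR receptors, which raise the efflux pumps and Mylip, a ubiquitin ligase that marks lipoprotein receptors for degradation. The liver also sends cholesterol into bile through the paired transporter ABCG5/ABCG8.

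Promoters of 5 members on which the results turn are shown first, from RefSeq on GRCm38.p6, each running from 250 bases before to 50 bases after an annotated start, 5′ to 3′ on the gene's strand. Capitals mark CCAAT or its reverse complement, the letters bound by NF-Y, a known partner of SREBP2. Msmo1 (chr8:64733529-64733828, minus strand) and Idi1 (chr13:8885356-8885655, plus strand) are enzymes whose level differed widely between libraries of 1 group. Tm7sf2 (chr19:6067801-6068100, minus strand), Tmem97 (chr11:78550686-78550985, minus strand) and Abcg5 (chr17:84682962-84683261, minus strand) are genes that passed the test in tumours.
Msmo1: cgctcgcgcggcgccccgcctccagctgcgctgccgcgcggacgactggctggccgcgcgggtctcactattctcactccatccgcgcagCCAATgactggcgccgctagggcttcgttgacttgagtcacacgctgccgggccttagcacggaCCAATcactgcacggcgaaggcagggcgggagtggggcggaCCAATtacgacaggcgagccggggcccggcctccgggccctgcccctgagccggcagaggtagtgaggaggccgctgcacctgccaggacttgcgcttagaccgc
Idi1: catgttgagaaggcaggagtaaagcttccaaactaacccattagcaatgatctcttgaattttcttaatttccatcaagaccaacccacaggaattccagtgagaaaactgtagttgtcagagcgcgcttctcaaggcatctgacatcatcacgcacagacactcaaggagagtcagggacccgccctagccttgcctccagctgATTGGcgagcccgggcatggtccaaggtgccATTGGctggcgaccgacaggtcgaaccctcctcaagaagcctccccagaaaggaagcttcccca
Tm7sf2: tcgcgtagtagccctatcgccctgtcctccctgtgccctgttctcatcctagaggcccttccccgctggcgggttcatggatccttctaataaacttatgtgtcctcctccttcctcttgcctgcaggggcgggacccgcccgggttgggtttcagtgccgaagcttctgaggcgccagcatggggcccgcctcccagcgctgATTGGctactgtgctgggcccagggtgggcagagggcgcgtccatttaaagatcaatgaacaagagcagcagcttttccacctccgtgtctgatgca
Tmem97: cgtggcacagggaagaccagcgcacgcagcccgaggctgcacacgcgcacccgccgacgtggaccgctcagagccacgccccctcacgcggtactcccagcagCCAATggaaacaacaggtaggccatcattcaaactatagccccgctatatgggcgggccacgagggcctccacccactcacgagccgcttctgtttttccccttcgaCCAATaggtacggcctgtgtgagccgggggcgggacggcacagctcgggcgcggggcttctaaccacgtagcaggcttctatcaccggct
Abcg5: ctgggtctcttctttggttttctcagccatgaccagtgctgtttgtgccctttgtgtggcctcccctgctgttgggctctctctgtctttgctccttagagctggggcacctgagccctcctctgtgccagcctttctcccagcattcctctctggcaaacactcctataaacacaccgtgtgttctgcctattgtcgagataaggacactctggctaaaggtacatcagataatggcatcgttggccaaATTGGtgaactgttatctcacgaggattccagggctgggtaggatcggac

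CCAAT on either strand was present in a promoter of 22 of the 25 members with an entry, and in 42.7% of the 11364 tested genes with one. In Msmo1 it lay 160, 96 and 55 bases before the start, in Tmem97 147 and 40 bases before it, and in Tm7sf2 47 bases before it. Counted per promoter, 22 of 32 member promoters and 37.4% of all 32851 promoters held it. The GC box GGGCGG was found for 21 of 25 members and 63.5% of tested genes. The SRE-type letters TCACNCCAC were found for 0 of 25 members and 1.48% of tested genes, and the LXR element, direct repeats of AGGTCA with 4 bases between them, for 0 of 25 and 0.0088%. Both are so rare over all genes that 0 of 25 does not set the members apart. Only these exact letters were searched, and 5 members had no promoter entry (Fdps, Fdft1, Sqle, Stard4 and Abcg1). Abcg5 and one start of Abcg8 lie 110 bases apart on opposite strands, so their windows share 209 bases.

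In tumours, 6 of the 30 measured genes fell and 1 rose relative to KAP1-deleted liver. The genes that fell were Tm7sf2 and Ebp, late enzymes of synthesis, Scap and Insig2 of the SREBP2 switch, Mylip, and Abcg5. The gene that rose was Tmem97, which encodes the sigma-2 receptor, a sterol-responsive membrane protein of the endoplasmic reticulum. The test was edgeR's quasi-likelihood test with Benjamini-Hochberg adjustment over the 17558 genes and a threshold of 0.05, and over all genes 6.64% fell and 4.8% rose. The median log2 fold change was -0.48 over the 30 members and -0.03 over all genes, with 27 of 30 members below 0. The libraries of the groups did not overlap for 13 members that were lower, against 34.8% of all genes, and for 1 that was higher, against 28.7%. With the mouse as a block 10 genes fell and 1 rose, the added genes being Pmvk, Srebf2, Insig1 and Abcg8, and over all genes in that fit 14.1% fell and 11.9% rose. The count that fell was 3 without KAP1-deleted replicate 2 and 3 without tumour replicate 1, and Tmem97 did not pass whichever of the 4 libraries compared was left out.

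Relative to control liver, 9 of 30 genes fell in tumours and 1 rose. The genes that fell were Pmvk, Tm7sf2, Ebp, Srebf2, Scap, Insig2, Mylip, Abcg5 and Abcg8, and Tmem97 again was the gene that rose. Over all genes 7.76% fell and 6.15% rose in this comparison. The median log2 fold change of the members was -1.35, that of all genes was -0.02, and 28 of 30 members lay below 0. Groups did not overlap for 24 members that were lower (29.9% of all genes) and 2 that were higher, Tmem97 and Ggps1 (26.5% of all genes). DESeq2 called 14 lower, against 9.84% of all genes, adding Sqle, Stard4, Nsdhl, Sc5d and Insig1, while the edgeR count was 3 without tumour replicate 1 (Tm7sf2, Srebf2 and Scap) and 4 without tumour replicate 2. The median was -0.61 without control replicate 1.

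In KAP1-deleted liver relative to control liver, 0 of the 30 genes passed the test, while 0.239% of all genes rose and 0.0968% fell (0.336% in either direction). An unadjusted p under 0.05 was reached by 5 members, 4 lower (Pmvk, Tm7sf2, Nsdhl and Srebf2) and Insig2 higher, against 5.44% of all genes in either direction. DESeq2 and limma-voom also called 0. The median log2 fold change was -0.54 over the members and 0.00 over all genes, with 25 of 30 below 0. The groups did not overlap for 6 members that were lower and 2 that were higher, against 14.6% and 16.7% of all genes. The median ranged from -0.14 without control replicate 1 to -0.93 without control replicate 2, and a fit with no filter on low counts, which called 571 of 27238 genes, called 13 members lower.

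**Figure D1:**
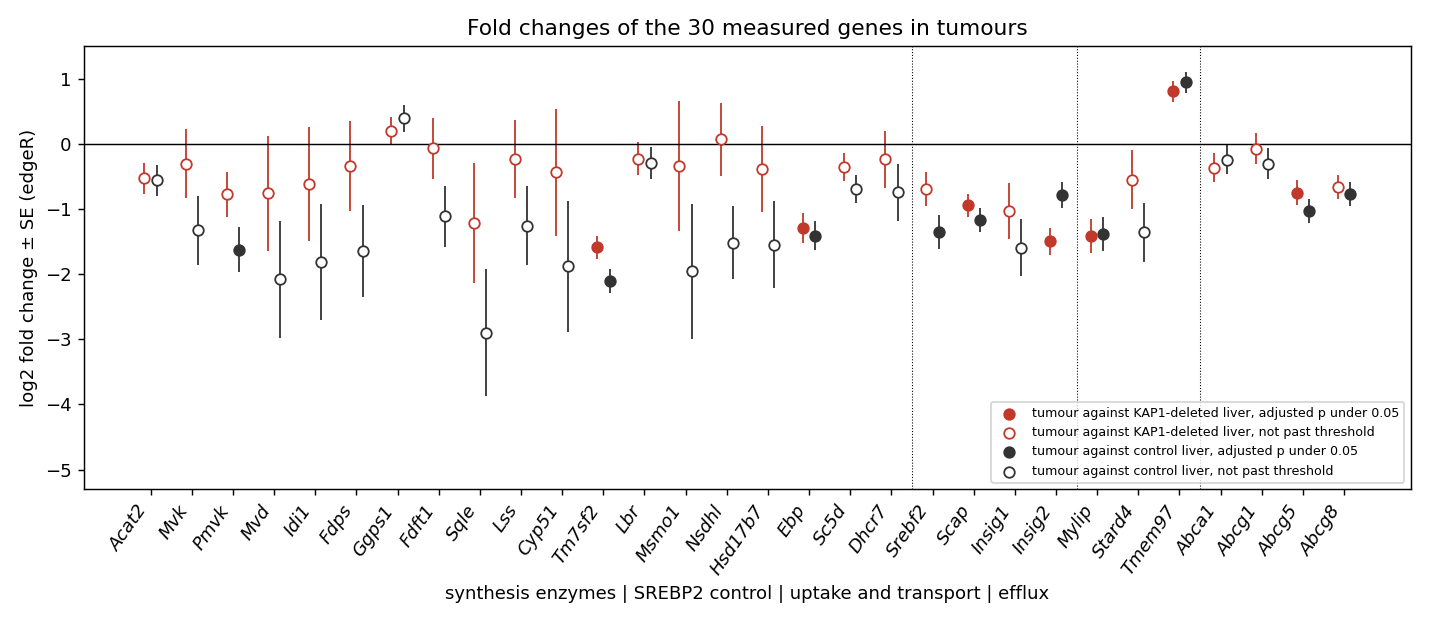
Log2 fold changes of the 30 measured genes in tumours (points, with 1 SE as bars, edgeR), against KAP1-deleted liver in red and against control liver in dark grey, with filled points for adjusted p under 0.05. The 6 genes that fell relative to KAP1-deleted liver and Tmem97, which rose, have short bars, while most enzymes from Mvd to Msmo1 have long ones.

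Of the 19 measured enzymes, 14 differed at least 3-fold between the highest and lowest of the 6 libraries, up to 14.98-fold for Sqle. Between the replicates of 1 group, 0 enzymes differed that far in tumours, 4 in KAP1-deleted livers (Mvd, Sqle, Cyp51 and Msmo1) and 8 in control livers (these 4 with Idi1, Fdps, Lss and Hsd17b7). Control replicate 1 was the highest of the 6 libraries for 16 of 19 enzymes, and KAP1-deleted replicate 2 was the lowest for 10. Summed over the 19 enzymes, the level was 595 and 518 CPM in tumours, 983 and 586 CPM in KAP1-deleted livers, against 2029 and 853 CPM in control livers. Replicate 2 was below replicate 1 for 14 of 19 enzymes in tumours, 17 in KAP1-deleted livers and 17 in control livers. The KAP1-deleted livers were below the control of the same replicate number for 17 of 19 enzymes in each case, a number that does not pair these mice, whereas KAP1-deleted replicate 1 was below control replicate 2 for only 6 of 19. The libraries of KAP1-deleted and control liver overlapped for 15 of the 19 enzymes. Over all genes, 14.6% were lower and 16.7% higher in KAP1-deleted liver without overlap. For the other counts in this paragraph no share over all genes is given. Whether this spread is particular to the enzymes was not tested.

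The early, mevalonate steps show this spread. Mvk, mevalonate kinase, had 4.63 and 3.31 CPM in tumours, 6.63 and 3.24 CPM in KAP1-deleted livers, against 14.6 and 5.48 CPM in control livers. Mvd, which decarboxylates mevalonate diphosphate, had 1.80 and 1.90 CPM in tumours, 5.02 and 1.27 CPM in KAP1-deleted livers, against 12.7 and 3.07 CPM in control livers. Both were highest in control replicate 1, and the tumour libraries lay within the range of the 2 KAP1-deleted livers but below both controls. Pmvk, phosphomevalonate kinase, had 6.14 and 5.08 CPM in tumours, 11.6 and 7.63 CPM in KAP1-deleted livers, against 23.0 and 11.8 CPM in control livers. The 3 groups of Pmvk did not overlap, and it was the only mevalonate enzyme to pass the test, with a log2 fold change of -1.62 ± 0.35 (SE) between tumours and control livers and an edgeR adjusted p of 0.0220. That p was 0.0890 without tumour replicate 1 and 0.117 without tumour replicate 2.

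Acat2, which joins 2 acetyl-CoA units, had 58.5 and 42.0 CPM in tumours, 67.1 and 78.0 CPM in KAP1-deleted livers, against 61.7 and 86.6 CPM in control livers. It was among the 2 enzymes highest in control replicate 2, the other being Ebp, and its tumour libraries were the lowest 2 of 6 (log2 fold change against control -0.56 ± 0.24, adjusted p = 0.161 in edgeR). Only 56.3% of its mature sequence was unique in the mouse transcriptome, so its reads can be shared with near copies.

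The isoprenoid enzymes, which make the building blocks of squalene, varied most in control liver. Idi1, which isomerises isopentenyl diphosphate, had 35.0 and 34.1 CPM in tumours, 77.9 and 28.7 CPM in KAP1-deleted livers, against 206 and 37.3 CPM in control livers. Fdps, farnesyl diphosphate synthase, had 31.9 and 28.3 CPM in tumours, 56.4 and 19.6 CPM in KAP1-deleted livers, against 143 and 45.6 CPM in control livers. For both genes the tumours lay close to each other, while the livers differed more than 2-fold within each group. Of the mature sequence, 72.9% was unique for Idi1 and 72.1% for Fdps. Fdps exons share 1124 bases with those of Gm43738 on the same strand. Ggps1, which makes geranylgeranyl diphosphate for protein prenylation rather than sterols, had 10.2 and 11.3 CPM in tumours, 10.3 and 8.58 CPM in KAP1-deleted livers, against 9.38 and 7.11 CPM in control livers. It was the steadiest of these enzymes, 1.59-fold between its highest and lowest library, and the only enzyme with tumours above both controls.

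The squalene and lanosterol steps had their low values in KAP1-deleted replicate 2 or in tumours. Sqle, squalene epoxidase, a rate-limiting step of the pathway, had 9.51 and 5.999 CPM in tumours, 29.8 and 6.29 CPM in KAP1-deleted livers, against 89.8 and 26.3 CPM in control livers. Tumours were below both controls, and the log2 fold change between them was -2.90 ± 0.97 (adjusted p = 0.124 in edgeR and 0.0338 in DESeq2). Fdft1, squalene synthase, had 41.1 and 33.8 CPM in tumours, 51.8 and 27.1 CPM in KAP1-deleted livers, against 115 and 47.5 CPM in control livers. Lss, which closes the rings to lanosterol, had 20.5 and 14.5 CPM in tumours, 26.7 and 14.5 CPM in KAP1-deleted livers, against 64.1 and 19.7 CPM in control livers. Fdft1 tumours lay below both controls, while Lss overlapped in all 3 comparisons. Fdft1 exons share 774 bases with those of Ctsb on the opposite strand, and 68.1% of its mature sequence was unique.

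Enzymes that strip methyl groups from lanosterol were likewise highest in control replicate 1. Cyp51, lanosterol demethylase, had 53.3 and 32.4 CPM in tumours, 94.6 and 21.7 CPM in KAP1-deleted livers, against 260 and 56.5 CPM in control livers. Msmo1, the methylsterol oxidase whose promoter is shown above, had 77.5 and 50.4 CPM in tumours, 132 and 29.98 CPM in KAP1-deleted livers, against 416 and 81.4 CPM in control livers. In both genes the tumour values lay between those of the 2 KAP1-deleted livers and below both controls. Nsdhl, the sterol dehydrogenase of the next step, had 8.56 and 6.15 CPM in tumours, 9.45 and 4.64 CPM in KAP1-deleted livers, against 31.3 and 11.1 CPM in control livers. Hsd17b7, the reductase that completes it, had 42.8 and 27.5 CPM in tumours, 61.4 and 30.6 CPM in KAP1-deleted livers, against 160 and 46.7 CPM in control livers. Nsdhl was below both controls in both KAP1-deleted livers, with a log2 fold change of -1.59 ± 0.56 and an adjusted p of 0.782 in edgeR. In tumours against control it was -1.52 ± 0.56 with an adjusted p of 0.133, and the Hsd17b7 tumours also lay below both controls.

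**Figure D2:**
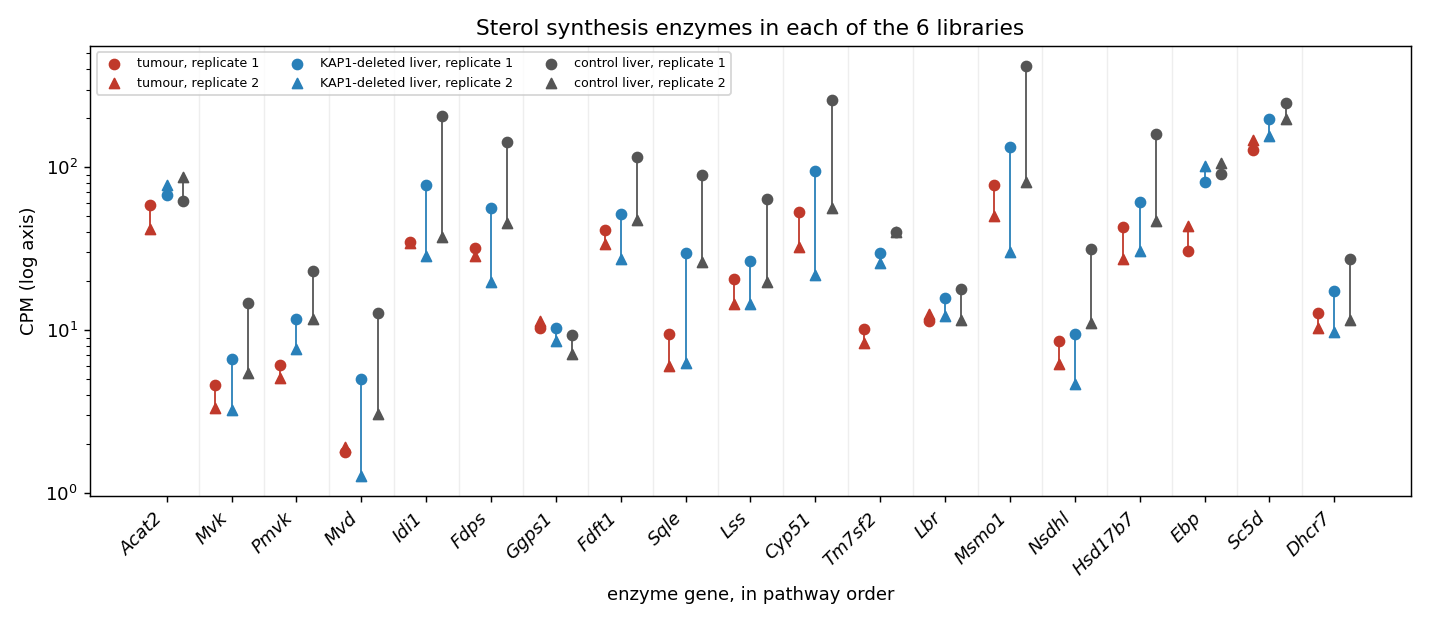
CPM on a log axis of the 19 measured enzymes in pathway order, with tumours in red, KAP1-deleted livers in blue and control livers in grey, circles for replicate 1 and triangles for replicate 2, and a line joining the replicates of a group. Long lines, as for Msmo1 with 416 and 81.4 CPM in control livers, mark enzymes whose replicates differ widely, while Tm7sf2 and Ebp have short lines and low tumours.

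Among the late enzymes of synthesis, Tm7sf2 and Ebp fell in tumours in both comparisons. Tm7sf2, the sterol C14 reductase, had 10.2 and 8.36 CPM in tumours, 29.9 and 26.0 CPM in KAP1-deleted livers, against 40.2 and 40.0 CPM in control livers. The 3 groups did not overlap, and in each the replicates were close. Tm7sf2 fell in tumours relative to KAP1-deleted liver, with a log2 fold change of -1.59 ± 0.18 and an edgeR adjusted p of 0.00278, and relative to control liver, with -2.11 ± 0.18 and 0.000832. Its value in KAP1-deleted against control liver was -0.52 ± 0.18 with an adjusted p of 0.635. Both tumour calls held when each library in turn was left out, the first with a highest adjusted p of 0.0174. In the GRCm38 annotation its exons share 532 bases with those of Vps51 on the same strand, and such reads cannot be assigned from counts.

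Lbr, the lamin B receptor, carries the same C14 reductase activity in the nuclear envelope. It had 11.4 and 12.6 CPM in tumours, 15.8 and 12.2 CPM in KAP1-deleted livers, against 17.96 and 11.5 CPM in control livers, and its groups overlapped in all 3 comparisons. Per kilobase of exon, the level of Tm7sf2 over that of Lbr was 0.968 and 0.719 in tumours, 2.04 and 2.30 in KAP1-deleted livers, against 2.42 and 3.77 in control livers. By this measure Lbr was the higher of the pair in both tumours, by a small margin in replicate 1, and the lower in all 4 livers. The rank depends on the exon lengths used, 4403 bases for Tm7sf2 and 4761 bases for Lbr, merged over all annotated transcripts. The bases that Tm7sf2 shares with Vps51 are included.

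Ebp, the isomerase that moves the sterol double bond, had 30.8 and 43.5 CPM in tumours, 81.2 and 101 CPM in KAP1-deleted livers, against 91.1 and 106 CPM in control livers. Both tumours were below all 4 livers, and the liver groups overlapped. Ebp fell by 1.30 ± 0.23 on the log2 scale relative to KAP1-deleted liver (edgeR adjusted p = 0.0126) and by 1.41 ± 0.23 relative to control liver (adjusted p = 0.00780). Without tumour replicate 1 these p-values were 0.0782 and 0.0532, and without KAP1-deleted replicate 2 the first was 0.0566.

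Sc5d, the desaturase of the next step, had 128 and 146 CPM in tumours, 197 and 155 CPM in KAP1-deleted livers, against 247 and 197 CPM in control livers. Tumours were below all 4 livers, with a log2 fold change of -0.69 ± 0.21 against control and an edgeR adjusted p of 0.0701. Dhcr7, which makes cholesterol from its direct precursor, had 12.6 and 10.3 CPM in tumours, 17.4 and 9.77 CPM in KAP1-deleted livers, against 27.2 and 11.5 CPM in control livers. Dhcr7 overlapped between groups in all 3 comparisons.

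The mice differed in what their tumours showed against their own liver. In the mouse of replicate 1 all 19 enzymes were lower in the tumour than in the liver of that mouse, with a median log2 ratio of -0.62. In the mouse of replicate 2 only 7 of 19 enzymes were lower, with a median of 0.05. Over all 30 members the numbers lower in the tumour were 29 and 16 in these mice. KAP1-deleted replicate 2 was the library with the lowest level for 10 enzymes, and without KAP1-deleted replicate 1 the median over the members between tumours and KAP1-deleted livers was -0.00. The 16 members lower in the tumour in the mouse of replicate 2 were all lower in the other mouse too. With 29 of 30 lower in the mouse of replicate 1, that overlap was nearly fixed beforehand. No share over all genes is given for any of the counts within a mouse. These 16 were the enzymes Acat2, Pmvk, Sqle, Tm7sf2, Hsd17b7, Ebp and Sc5d, the switch genes Srebf2, Scap, Insig1 and Insig2, and Mylip, Stard4, Abca1, Abcg5 and Abcg8. Tmem97 was higher in both.

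**Figure D3:**
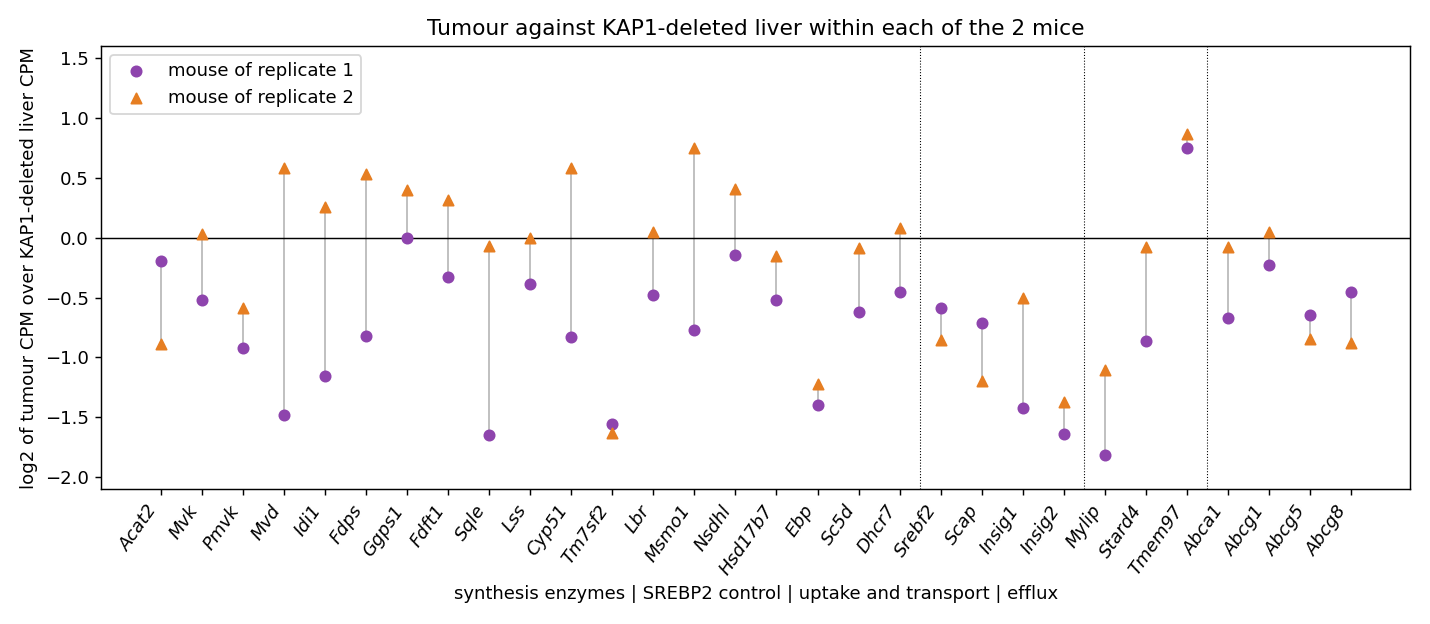
Log2 ratio of tumour CPM to KAP1-deleted liver CPM within the mouse of replicate 1 (purple circles) and the mouse of replicate 2 (orange triangles) for the 30 measured genes, with a grey line joining the mice. Medians over the enzymes were -0.62 in the first mouse and 0.05 in the second, and Tm7sf2, Ebp, Insig2 and Mylip lie below -1 in both mice.

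All 4 genes of the SREBP2 switch were lower in both tumours than in every KAP1-deleted and control liver. Over all genes, 34.8% were lower without overlap against KAP1-deleted liver and 29.9% against control liver. Srebf2, the transcription factor itself, had 9.86 and 6.34 CPM in tumours, 14.8 and 11.5 CPM in KAP1-deleted livers, against 23.0 and 18.7 CPM in control livers. The 3 groups did not overlap. Srebf2 fell in tumours relative to control liver (log2 fold change -1.36 ± 0.26, edgeR adjusted p = 0.0146, and 0.0658 without tumour replicate 2). Against KAP1-deleted liver the value was -0.70 ± 0.26 with an adjusted p of 0.121, and 0.0174 with the mouse as a block. KAP1-deleted against control liver gave -0.66 ± 0.26 with an adjusted p of 0.805.

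Scap, the escort of SREBP2, had 19.9 and 15.8 CPM in tumours, 32.6 and 36.2 CPM in KAP1-deleted livers, against 38.9 and 41.7 CPM in control livers. Its groups did not overlap either. In the GRCm38 annotation the exons of Scap share 985 bases with those of 5830462I19Rik on the opposite strand. Scap fell relative to KAP1-deleted liver (-0.95 ± 0.18, edgeR adjusted p = 0.0174) and relative to control liver (-1.17 ± 0.18, adjusted p = 0.00668). The second call held when each library in turn was left out, while the first had adjusted p-values of 0.0520, 0.108 and 0.0838 without KAP1-deleted replicate 1, KAP1-deleted replicate 2 and tumour replicate 2.

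The 2 INSIG genes, whose products retain SCAP in the endoplasmic reticulum, did not follow each other between livers. Insig2, the form known not to depend on SREBP, had 106 and 137 CPM in tumours, 331 and 356 CPM in KAP1-deleted livers, against 203 and 218 CPM in control livers. It was lowest in tumours and highest in KAP1-deleted livers, with no overlap among the 3 groups. Insig2 fell in tumours relative to KAP1-deleted liver, with -1.50 ± 0.21 and an edgeR adjusted p of 0.00569, at most 0.0433 when each library in turn was left out. Relative to control liver it fell with -0.79 ± 0.20 and an adjusted p of 0.0406, which was 0.0574 with upper-quartile scaling and 0.0692 in the 4 compared libraries alone, and ranged from 0.0652 to 0.190 without tumour replicate 1 or 2, control replicate 2, or KAP1-deleted replicate 1 or 2. KAP1-deleted against control liver gave 0.71 ± 0.20 with an adjusted p of 0.436, the smallest of the 30 members in that comparison.

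Insig1, a known target of SREBP, had 71.3 and 69.5 CPM in tumours, 191 and 98.4 CPM in KAP1-deleted livers, against 293 and 133 CPM in control livers. The tumours agreed closely and were below all 4 livers, while the 2 livers of each group lay far apart. Insig1 gave -1.04 ± 0.43 against KAP1-deleted liver (edgeR adjusted p = 0.165, and 0.00129 with the mouse as a block) and -1.60 ± 0.44 against control liver (adjusted p = 0.0546). Per kilobase of exon, the level of Insig1 over that of Insig2 was 0.754 and 0.568 in tumours, 0.648 and 0.310 in KAP1-deleted livers, against 1.62 and 0.688 in control livers. By this measure Insig1 was the higher of the pair in control replicate 1 alone.

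Genes of uptake and transport moved in different directions. Mylip had 3.76 and 6.40 CPM in tumours, 13.2 and 13.8 CPM in KAP1-deleted livers, against 14.1 and 12.3 CPM in control livers. The livers overlapped and the tumours were below all of them. Mylip fell by 1.42 ± 0.26 on the log2 scale relative to KAP1-deleted liver (edgeR adjusted p = 0.0160) and by 1.38 ± 0.26 relative to control liver (adjusted p = 0.0146), with p-values of 0.0572 and 0.0522 without tumour replicate 1.

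Tmem97 had 85.3 and 80.5 CPM in tumours, 50.8 and 44.2 CPM in KAP1-deleted livers, against 43.3 and 43.0 CPM in control livers. Both tumours were above all 4 livers. Tmem97 rose by 0.80 ± 0.16 on the log2 scale relative to KAP1-deleted liver (edgeR adjusted p = 0.0220) and by 0.94 ± 0.17 relative to control liver (adjusted p = 0.0107). With 1 of the 4 libraries compared left out, the first p-value was between 0.0692 and 0.226, and without tumour replicate 1 the second was 0.0595. Of its mature sequence 74.4% was unique in the transcriptome.

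Stard4, which carries sterol between membranes and is known as an SREBP2 target, had 44.5 and 37.8 CPM in tumours, 80.7 and 39.9 CPM in KAP1-deleted livers, against 146 and 65.9 CPM in control livers. It followed the library order of the enzymes, with tumours below both controls and a log2 fold change of -1.36 ± 0.46 (edgeR adjusted p = 0.100). Per kilobase of exon, the level of Tmem97 over that of Stard4 was 7.79 and 8.66 in tumours, 2.56 and 4.49 in KAP1-deleted livers, against 1.21 and 2.65 in control livers. The ratio was higher in both tumours than in any liver.

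Of the biliary sterol transporter, Abcg5 fell in tumours in both comparisons and Abcg8 fell relative to control liver, while the other 2 efflux pumps did not pass the test. Abcg5 had 29.3 and 28.5 CPM in tumours, 45.7 and 51.4 CPM in KAP1-deleted livers, against 51.1 and 67.1 CPM in control livers. Abcg8, its obligate partner, had 34.4 and 30.2 CPM in tumours, 47.2 and 55.7 CPM in KAP1-deleted livers, against 49.8 and 60.4 CPM in control livers. In both genes the tumours were below all 4 livers and the liver groups overlapped. Abcg5 fell relative to KAP1-deleted liver (-0.75 ± 0.19, edgeR adjusted p = 0.0416) and to control liver (-1.03 ± 0.19, adjusted p = 0.0124). Abcg8 gave -0.67 ± 0.19 against KAP1-deleted liver (adjusted p = 0.0555, and 0.0146 with the mouse as a block) and fell relative to control liver (-0.77 ± 0.19, adjusted p = 0.0324). The p-value of Abcg5 against KAP1-deleted liver was 0.0539 and 0.0525 under 2 other scalings. Without 1 library these p-values reached 0.246 for Abcg5 against KAP1-deleted liver, 0.0714 for Abcg5 against control and 0.154 for Abcg8 against control. Abcg5 and Abcg8 share 82 exon bases on opposite strands, and the strand setting of the counting was not stated for these files. Depending on that setting, reads over these bases were counted for 1 gene or left out as ambiguous.

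Per kilobase of exon, the level of Abcg5 over that of Abcg8 was 1.18 and 1.31 in tumours, 1.34 and 1.28 in KAP1-deleted livers, against 1.42 and 1.54 in control livers. Abca1, which loads cholesterol onto apolipoprotein A-I, had 349 and 441 CPM in tumours, 555 and 465 CPM in KAP1-deleted livers, against 443 and 493 CPM in control livers. Abcg1, which exports sterol to HDL and is best known from macrophages, had 7.06 and 9.50 CPM in tumours, 8.24 and 9.22 CPM in KAP1-deleted livers, against 8.60 and 11.8 CPM in control livers. Abca1 was lowest in the tumours, by a small margin in tumour replicate 2, and Abcg1 overlapped in all 3 comparisons.

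**Figure D4:**
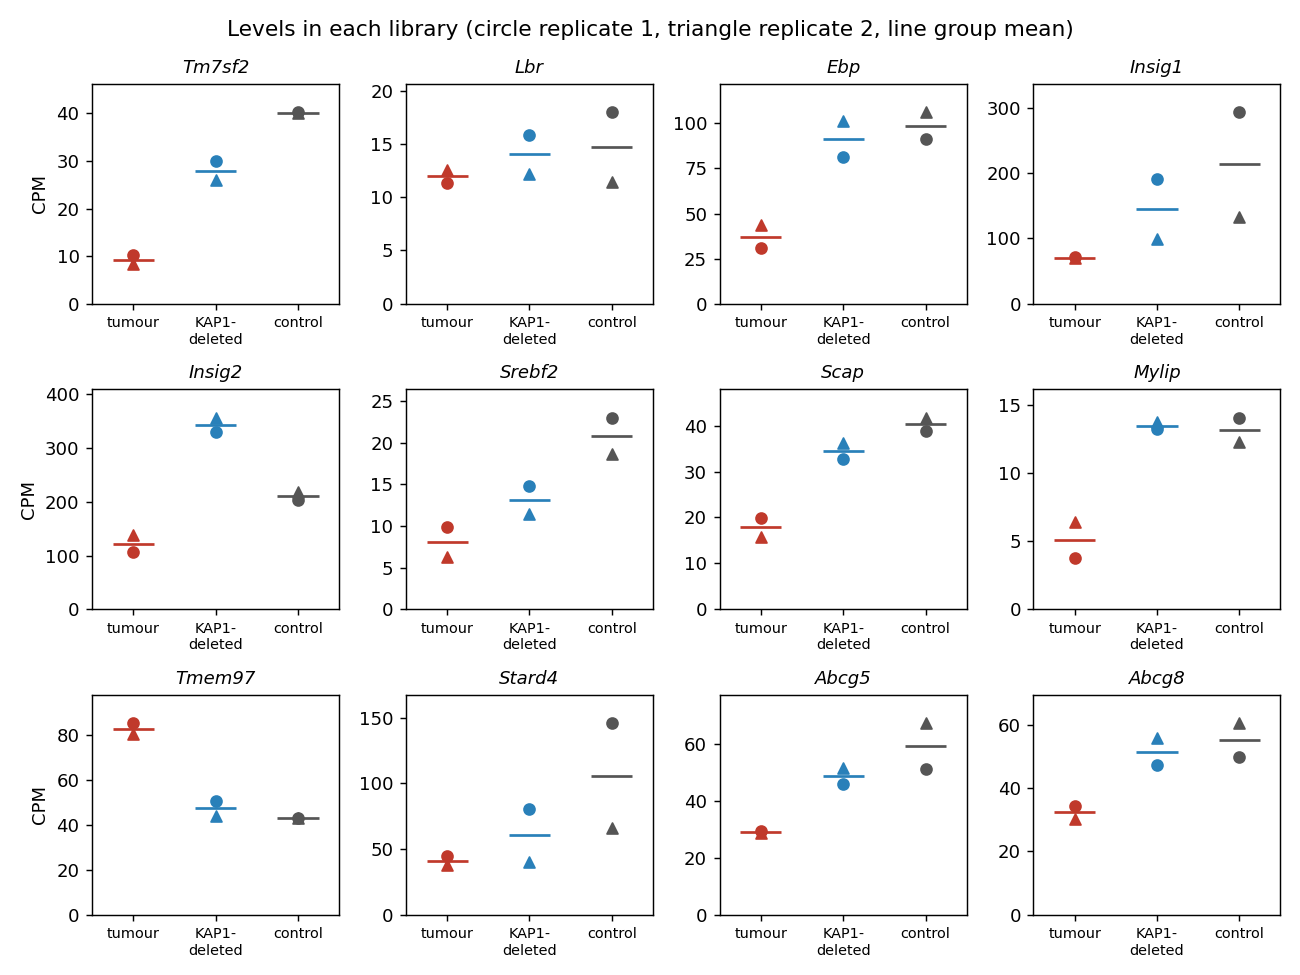
CPM in each library of 12 members (circle replicate 1, triangle replicate 2, line the mean of the 2 libraries), with tumours at the left, KAP1-deleted livers in the middle and control livers at the right of each panel, on axes that start at 0. Tm7sf2 and Ebp are low in tumours, with 9.27 and 37.1 CPM on average, Tmem97 is high with 82.9 CPM, and Insig2 is highest in KAP1-deleted livers with 344 CPM.

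Among 39 other sterol genes listed by function, 38 were tested and 0 passed between KAP1-deleted and control liver in edgeR, with 1 at an unadjusted p under 0.05 and 0 called by DESeq2 or limma-voom. Over all genes 0.336% passed in edgeR and 5.44% had an unadjusted p under 0.05. In tumours relative to KAP1-deleted liver 3 rose (Rnf145, Gramd1b and Gramd1a) and 3 fell, Srebf1 and Gramd1c among them. The shares over all genes were 4.8% and 6.64%. Relative to control liver 3 rose (Rnf145, Soat2 and Npc1) and 4 fell, Srebf1, Lcat and Gramd1c among them, beside 6.15% and 7.76% of all genes. Srebf1, the gene of SREBP1, had 20.05 and 30.6 CPM in tumours, 51.8 and 53.6 CPM in KAP1-deleted livers, against 77.4 and 86.1 CPM in control livers. It fell by 1.06 ± 0.22 on the log2 scale relative to KAP1-deleted liver (edgeR adjusted p = 0.0237) and by 1.69 ± 0.23 relative to control liver (adjusted p = 0.00383). Rnf145, a sterol-responsive ubiquitin ligase, had 27.7 and 34.3 CPM in tumours, 13.5 and 15.6 CPM in KAP1-deleted livers, against 12.8 and 18.1 CPM in control livers. It rose by 1.09 ± 0.22 relative to KAP1-deleted liver (adjusted p = 0.0217) and by 1.004 ± 0.22 relative to control liver (adjusted p = 0.0244). Of the calls named here, that of Srebf1 against control liver alone passed without each library in turn.

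Acetyl-CoA made by Acly feeds both sterols and fatty acids, and Acly and Fasn were the 2 of 11 fatty acid synthesis genes that fell in tumours in both comparisons, beside 6.64% of all genes relative to KAP1-deleted liver and 7.76% relative to control liver. Acly had 28.4 and 36.7 CPM in tumours, 95.7 and 88.6 CPM in KAP1-deleted livers, against 126 and 103 CPM in control livers, and it fell by 1.501 ± 0.20 on the log2 scale relative to KAP1-deleted liver (edgeR adjusted p = 0.00529). The 3 groups did not overlap.

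Other liver genes also separated replicates of 1 group. Scd1, the stearoyl-CoA desaturase, had 335 and 1918 CPM in tumours, 1878 and 7698 CPM in KAP1-deleted livers, against 1967 and 14577 CPM in control livers, so that replicate 2 was the higher in each group, against the order of the sterol enzymes. Igfbp1, which rises in fasted liver, had 203 and 143 CPM in tumours, 91.5 and 69.8 CPM in KAP1-deleted livers, against 122 and 20.1 CPM in control livers, in the order of the enzymes. The 14 clock genes summed to 536 and 465 CPM in tumours, 573 and 533 CPM in KAP1-deleted livers, against 578 and 536 CPM in control livers. Such a sum can stay level while single genes move in opposite directions, so it cannot show whether time of day differed between libraries. Of the 14, Cry1 and Ciart fell in tumours relative to control liver in edgeR, and the others did not pass. Time since feeding is not given in the labels, and its part in the spread of the enzymes was not tested.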

How the data were processed

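RNA from mouse liver and tumour was sequenced from libraries made with a kit that keeps strand, and the deposited values are whole-number counts of reads per gene, made with TopHat and HTSeq 0.6.1 on mm9, per the submitters' processing notes. The strand setting of the counting was not given in the sources used here. Entries for reads not assigned to a gene, ambiguous reads among them, held 20.9% to 36.7% of a library's total and entered neither library sizes nor tests. Gene names and exon lengths came from GENCODE on GRCm38, so no mm9 coordinate is printed. Groups came from the labelled transgene and tissue.

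edgeR 4.0.16 in R 4.3.3 fitted all 6 libraries with 1 mean per group (filterByExpr with a minimum count of 10 and a total of 15, TMM scaling, robust quasi-likelihood test, Benjamini-Hochberg adjustment over 17558 genes, threshold 0.05, 3 residual degrees of freedom). SE is the fold change divided by the root of the F statistic. Replicates are different mice, and libraries of 1 group differed far beyond counting noise (chi-square per degree of freedom 90.8 to 352), so no 2 were copies. The 2 tumours share mouse codes with the 2 KAP1-deleted livers, which pairs them, and their deviations from the group means correlated at 0.185. Alternatives were DESeq2 1.42.0, limma-voom 3.58.1, 2 other scalings, 2 other filters on low counts, removal of the 20 most abundant genes, the 4 compared libraries alone, each library left out, and the mouse as a block. The fit was tested on simulated data. Members and gene lists were chosen with earlier results of these data known. All members are named, and of other lists up to 4 genes with the smallest adjusted p; some are not reported here. Motifs were searched on both strands of RefSeq promoters, found for 25 of 30 members.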

Additional observations from a re-analysis of the deposited data

How the results depend on the processing

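Single genes were followed where a member had an edgeR unadjusted p under 0.05, or where another sterol or fatty acid synthesis gene passed the threshold. No fold change followed under these alternatives, and no median over the members, changed sign. For genes chosen that way a stable sign was likely beforehand. Other members were not followed, among them Cyp51 and Msmo1. In these 2 genes both tumours were below KAP1-deleted replicate 1 and above KAP1-deleted replicate 2. Of 752 single-gene values under the alternatives, 625 stayed on the same side of the threshold, 93 lost a call and 34 gained one. A fit with no filter beyond 1 count called 13 members lower in KAP1-deleted against control liver, where the filtered fit called 0, against 0.797% and 0.0968% of all genes. The same setting called 11 lower in tumours against KAP1-deleted liver (8.28% of all genes) and 24 lower in tumours against control liver (8.5%), and the cause was not tested. DESeq2 called 14 lower in tumours against control liver (9.84% of all genes). With the mouse as a replicate block, fitted in 4 libraries with 1 residual degree of freedom, 10 members were lower in tumours against KAP1-deleted liver (14.1% of all genes) and 1 was higher (11.9%), and no call was lost. A block over mouse code series (the lower codes against the higher ones), chosen after seeing the data, called 18 lower in tumours against control liver (10.5% of all genes). Leaving out 1 library at a time gave 3 to 7 lower and 0 to 1 higher in tumours against KAP1-deleted liver, with medians from -0.85 to -0.0047. In tumours against control liver it gave 3 to 9 lower and 0 to 1 higher, with medians from -1.56 to -0.61. With 2 libraries a group, a lone library left in a group is assumed to vary like the others, and p-values rest on the spread between 2 mice a group.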
